A study of Drosophila melanogaster with 12 samples.

Results

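The cytosolic ribosomal protein genes of *Drosophila melanogaster* were followed through RNA sequencing of whole bodies from a strain with resistance to avermectins and a strain sensitive to them. Avermectins are insecticides that open glutamate-gated chloride channels. Members were all rows whose gene symbol begins with RpL or RpS followed by a number, or with RpLP, which gave 92 of the 14001 genes in the table. Of these, 78 were taken as the core set, with 31 genes of the 40S subunit, 44 of the 60S subunit and 3 of the 60S stalk. The other 14 were second copies or related genes of a core gene, such as RpS5b beside RpS5a. Both kinds are counted as second copies below. The rule takes in neither the 40S protein gene sta, whose symbol does not begin in this way, nor the 73 mitochondrial ribosomal protein genes. No expression value was used to choose members.

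The 4 groups were resistant adults, sensitive adults, resistant third-instar larvae and sensitive third-instar larvae, with 3 libraries each. The labels name no mutation, transgene or insecticide exposure for either strain, and the tissue is the whole body throughout. They give neither the sex nor the exact age of the animals, nor whether replicates came from separate cultures. The p-values therefore rest on the spread of 3 libraries a group, and that spread may be technical. In whole bodies, fewer cells of a type and less RNA per cell cannot be told apart.

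The ribosome reads messenger RNA on its small subunit, 40S, and joins amino acids on its large subunit, 60S, from which a flexible stalk of acidic proteins recruits the elongation factors. Its proteins are made in matched amounts. In flies, loss of a single copy of many of these genes slows development and thins the bristles, the Minute phenotype. Several fly ribosomal proteins are encoded by a pair of genes, with the second copy often used mostly in the germline.

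Levels are FPKM, fragments per kilobase of transcript and per library total, which divide by transcript length and so may be compared between genes. The total FPKM of a library ran from 775870 to 1005446, and 12997 to 13452 genes were above 0. Marker genes matched the labelled stages. The summed level of 6 adult markers was 7886 to 17916 FPKM in adults, 5.62 to 7.33 FPKM in resistant larvae and 111.6 to 154.7 FPKM in sensitive larvae, with Yp1 and ninaE at 0 in all libraries of resistant larvae. The summed level of 8 larval markers was 83.9 to 264.7 FPKM in adults and 62882 to 109629 FPKM in larvae. Between replicates, 0.053 to 0.476% of genes at 1 FPKM or more in both had the same value, so none was a repeat of another. On the ribosomal protein genes 3 libraries stood apart: resistant adults replicate 3, sensitive adults replicate 1 and resistant larvae replicate 1.

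The ribosomal protein genes took 17.96 to 28.6% of all FPKM in a library. Their share was 25.4, 26.4 and 18.7% in resistant adults and 23.5, 27.2 and 28.6% in sensitive adults. It was 17.96, 21.2 and 20.4% in resistant larvae and 20.1, 21.5 and 23.4% in sensitive larvae. The group means were 23.5 ± 4.15, 26.4 ± 2.65, 19.8 ± 1.67 and 21.7 ± 1.64% in this order (SD, n = 3 each). The ranges of the strains overlapped in both stages, and so did those of the stages in the resistant strain. In the sensitive strain every adult library lay above every larval one, by as little as 23.5 against 23.4%. Without the 20 most abundant other genes of a library, the share was 26.1 to 31.3% in sensitive adults and 26.8 to 30.9% in sensitive larvae, which overlap. A share summed over chosen genes was not tested.

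**Figure D1:**
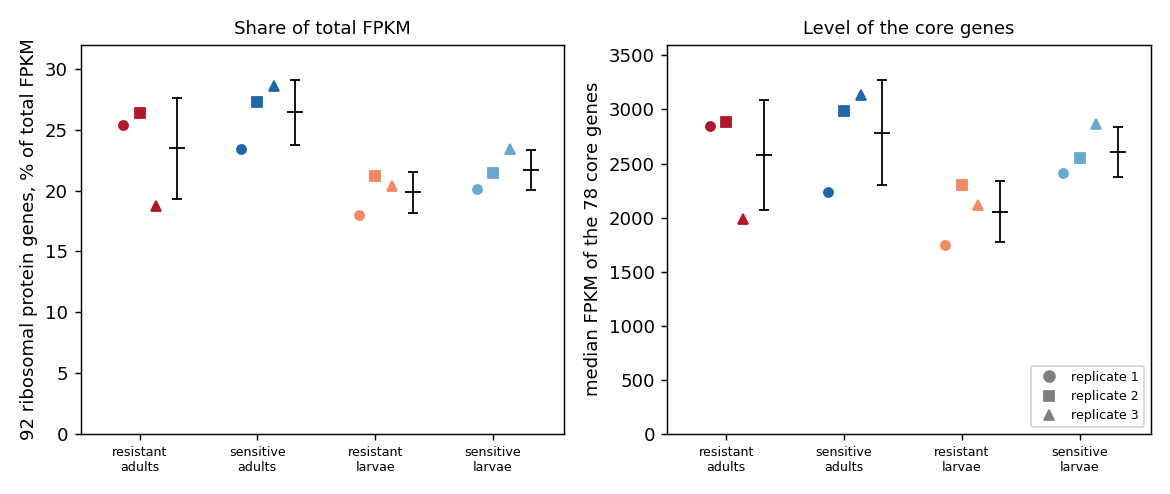
Left, share of total FPKM taken by the 92 ribosomal protein genes (%); right, median FPKM of the 78 core genes. Points are libraries with the replicate number as shape, bars are the mean ± SD of 3 libraries. The share of resistant adults replicate 3, at 18.7%, lies below that of the other 2 resistant adult libraries, at 25.4 and 26.4%.

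The means of the 40S and of the 60S genes had the same order of groups, with sensitive adults highest and resistant larvae lowest. The 40S genes took 9.40 ± 1.69% of all FPKM in resistant adults, 10.5 ± 1.08% in sensitive adults, 7.75 ± 0.652% in resistant larvae and 8.47 ± 0.660% in sensitive larvae (SD, n = 3 each). The 60S genes took 12.9 ± 2.22%, 14.6 ± 1.32%, 11.1 ± 0.867% and 11.96 ± 0.850% in the same order of groups. The stalk genes took 1.17 ± 0.255%, 1.37 ± 0.252%, 0.981 ± 0.158% and 1.24 ± 0.156%. The 14 second copies are counted within these values and together took 0.20 to 0.52% of all FPKM in a library.

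Nearly the whole core set was among the most abundant genes of the fly. Between 73 and 78 of the 78 core genes were in the top 200 of a library. The highest mean level over the 12 libraries was that of RpL41, at 5035 FPKM, which encodes the smallest protein of the ribosome. It was followed by RpLP2, an acidic stalk protein, at 4159 FPKM, and by RpL19, a 60S protein at the contact with the small subunit, at 4151 FPKM. RpL41 varied widely between replicates, with 3217, 8459 and 5125 FPKM in sensitive larvae, so the order of these 3 genes lies within the spread of their libraries. Of the second copies, RpS14a stood at 1641 FPKM, within the range of the core set, and the other 13 averaged 410.4 FPKM or less. The lowest were RpS28a at 1.66 FPKM, RpS28-like at 2.24 FPKM and RpS10a at 6.55 FPKM. The partners of the second copies lay between RpL22, at 879.1 FPKM, and RpL37a, at 3469 FPKM, with RpS14b at 1030 FPKM below RpS14a, RpL7 at 2471, RpL34b at 2106, RpS15Aa at 2038 and RpS28b at 2438 FPKM. Of the 92 members, 91 were above 0 in every library. The exception was RpS28a, listed at 0 in sensitive larvae replicate 1.

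The 3 libraries that stood apart did so across the set. In resistant adults replicate 3, 77 of 78 core genes were below the mean of the other 2 resistant adult libraries, with a median deviation of -0.57 on the log2 scale against -0.20 for all genes. In sensitive adults replicate 1, 74 of 78 were below, with a median of -0.48 against 0.06 for all genes. In resistant larvae replicate 1, 69 of 78 were below, with a median of -0.36 against 0.04. The deviation was also set beside transcript length. The 20 core genes with the shortest transcripts deviated by a median of -0.71 in resistant adults replicate 3 and the 20 longest by -0.38. In sensitive adults replicate 1 the values were -0.65 and -0.38, and in resistant larvae replicate 1 they were -0.45 and -0.33. Across the 78 core genes, which share their library, Spearman's rho of deviation with length was 0.39, 0.23 and 0.16 in these libraries. In the other 9 libraries it ran from -0.36 to 0.29. Deviations within a group offset each other, so libraries of the same group as these 3 partly mirror them. In sensitive larvae, the group that holds none of the 3, rho was 0.29, -0.15 and -0.18. What part length plays was not tested.

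**Figure D2:**
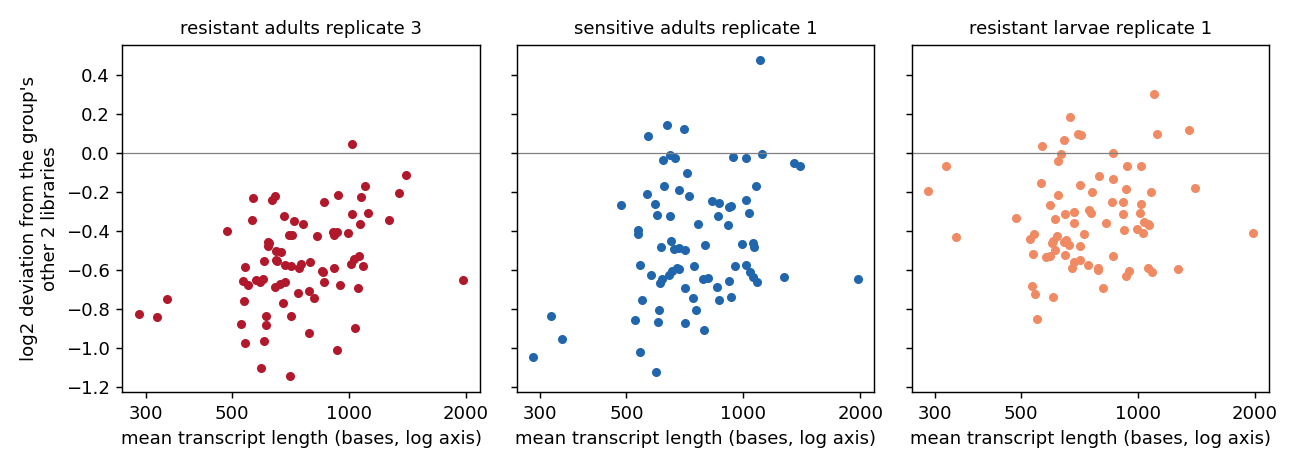
Log2 deviation of each of the 78 core genes from the mean of the other 2 libraries of its group, against mean transcript length in bases (log axis), in 3 libraries. Most points lie below 0, and in resistant adults replicate 3 the 20 shortest have a median of -0.71 and the 20 longest one of -0.38.

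The first comparison asked how the resistant strain differs from the sensitive strain in larvae. Of the 78 core ribosomal protein genes, 19 fell in resistant larvae, 0 rose and 59 did not pass the test, in a table where more genes were called higher than lower. Together with the copies, 20 of the 91 members tested fell and 3 rose (limma on log2(FPKM + 1), Benjamini-Hochberg adjusted p below 0.05). Over all genes tested, 9.84% were called lower and 48.8% higher. The median log2 fold change was -0.35 over the core set and 0.49 over all genes tested. All 78 core genes lay below the median of all genes, and 37 of the 91 members were lower in all 3 libraries of resistant larvae than in any of sensitive larvae, against 11.1% of all genes.

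The size of the fall depended on how libraries were scaled, and the core median was below 0 under each scaling run. Under median-of-ratios scaling, which puts the median of all genes near 0 at 0.02, 57 members fell and 0 rose, where 19.2% of all genes were called lower and 11.0% higher. The core median was then -0.92. With all libraries brought to a common total FPKM, 9 members fell and 4 rose, where 8.12% and 59.8% of all genes did. The core median was then -0.16, with 25 of the 78 core genes above 0. Relative to the median of all genes, the core set was lower by 0.83 without scaling and by 0.93 under median-of-ratios scaling. By subunit, 7 of 31 genes of 40S, 11 of 44 of 60S and 1 of 3 of the stalk were called lower, with medians of -0.35, -0.32 and -0.37. The count of members that fell was 7 without resistant larvae replicate 1, 4 without sensitive larvae replicate 3, and 13 without sensitive larvae replicate 1 or replicate 2. Of the 20 calls, 4 held whichever library was left out. For fits with a library left out, here and below, the shares of all genes called are not given. Their counts show how calls held and are not read as particular to the members. Stage markers moved with the strain in these libraries. Larval markers summed to 73803 ± 9503 FPKM in resistant larvae and 102580 ± 9850 FPKM in sensitive larvae (SD, n = 3 each), with 4 of 8 lower and 0 higher. All 3 adult markers tested were lower in resistant larvae. Of the 6 adult markers, 5 averaged below 1 FPKM in resistant larvae and 2 in sensitive larvae. The filter thus let in markers that are high in sensitive larvae, and that count is no test of their direction. The part of the stage markers in the levels of the ribosomal protein genes was not tested.

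RpL8, RpL17 and RpS10b had the largest falls. RpL8, a 60S protein next to the peptidyl transferase centre, had 1117, 1813 and 1602 FPKM in resistant larvae, against 3277, 2602 and 3443 FPKM in sensitive larvae. The groups did not overlap, and the log2 fold change was -1.06 ± 0.24 (SE, limma adjusted p = 0.004753). RpL17, which lines the exit tunnel of the nascent chain, had 950.6, 1226 and 1140 FPKM in resistant larvae and 1930, 2039 and 2207 FPKM in sensitive larvae. Every resistant library was lower than every sensitive one, with a log2 fold change of -0.90 ± 0.20 (SE, limma adjusted p = 0.00426). RpS10b, a 40S protein at the mRNA entry side, had 1494, 1940 and 1983 FPKM in resistant larvae and 3006, 3236 and 3597 FPKM in sensitive larvae (log2 fold change -0.87 ± 0.22, limma adjusted p = 0.006648).

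In the stalk, RpLP1 fell and RpLP0 and RpLP2 did not pass the test. RpLP1 had 2469, 3228 and 3099 FPKM in resistant larvae and 4317, 5092 and 6207 FPKM in sensitive larvae, with a log2 fold change of -0.82 (limma adjusted p = 0.0121). The call was lost without sensitive larvae replicate 3 (limma adjusted p = 0.06451). RpLP0, the scaffold of the stalk, had a log2 fold change of -0.37, and RpLP2, the other acidic stalk protein, one of -0.33. RpL8, RpL17, RpS10b and RpL18 stayed below an adjusted p of 0.05 whichever of the 6 larval libraries was left out.

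**Figure D3:**
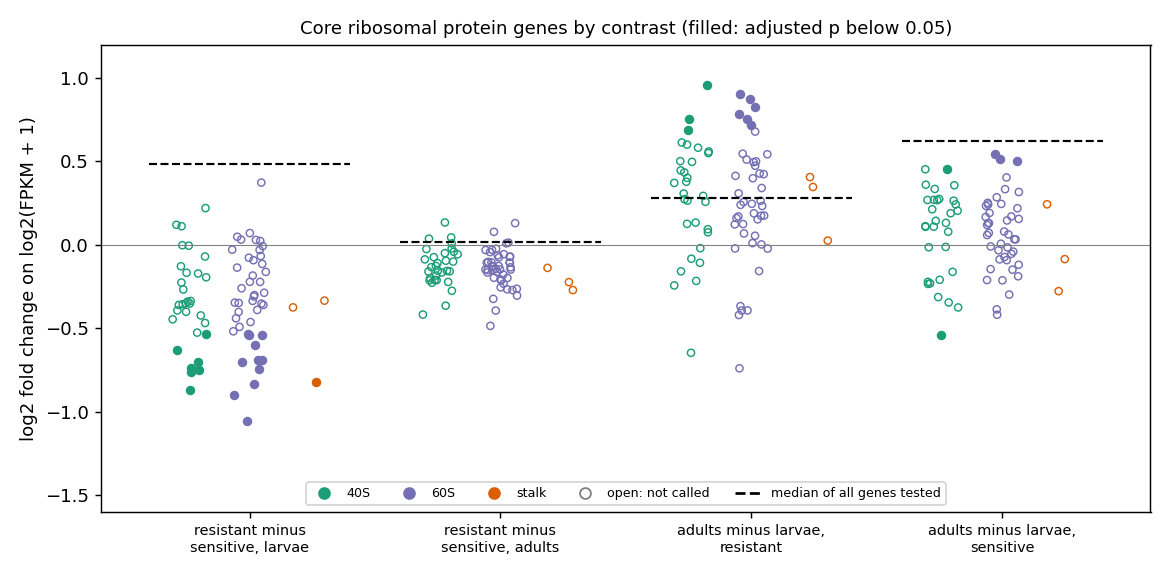
Log2 fold change on log2(FPKM + 1) of each of the 78 core genes in 4 contrasts, coloured by subunit, filled where the limma adjusted p was below 0.05. Dashed lines are the median of all genes tested, 0.49, 0.02, 0.28 and 0.62 from left to right; in larvae every core gene lies under it.

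Of the 13 second copies tested in larvae, 3 rose and 1 fell, where 48.8% of all genes rose and 9.84% fell. Their median log2 fold change was 0.17, and 11 of the 13 lay below the median of all genes. The 3 calls of higher levels, of RpL24-like, RpL10Aa and RpL22-like, were lost under median-of-ratios scaling. RpL24-like (chromosome arm 3R, bases 11430740 to 11431582, minus strand, dm6), whose yeast relative is an assembly factor of the 60S precursor, had 207.0, 331.1 and 351.9 FPKM in resistant larvae and 172.6, 155.6 and 177.0 FPKM in sensitive larvae. All libraries of resistant larvae were higher, by a log2 fold change of 0.78 ± 0.23 (SE, limma adjusted p = 0.01429), and by 0.21 under median-of-ratios scaling (limma adjusted p = 0.5496). RpL24, its partner and a 60S protein, had 1038, 1570 and 1582 FPKM in resistant larvae and 2401, 1780 and 2546 FPKM in sensitive larvae, a log2 fold change of -0.69 (limma adjusted p = 0.03332). The call of RpL24 was lost under common-total scaling (limma adjusted p = 0.06234) and without resistant larvae replicate 1, sensitive larvae replicate 1 or sensitive larvae replicate 3.

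Without sensitive larvae replicate 2 the call of RpL24-like was lost too, at 0.72. The count of members that rose was then 0, and it was 1 without resistant larvae replicate 3 or sensitive larvae replicate 3. A share within a pair does not depend on how libraries are scaled. RpL24-like made up 16.6, 17.4 and 18.2% of the FPKM of its pair in resistant larvae and 6.71, 8.04 and 6.50% in sensitive larvae, so the ranges were far apart. In adults the share was 13.4, 17.6 and 10.9% in the resistant strain and 14.3, 17.2 and 15.8% in the sensitive strain, which overlap. These shares were not tested.

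RpL10Aa, a second copy of the 60S protein gene RpL10Ab, had 4.99, 6.62 and 7.57 FPKM in resistant larvae and 4.76, 3.74 and 3.73 FPKM in sensitive larvae (log2 fold change 0.53, limma adjusted p = 0.03398). RpL22-like, the copy of RpL22 with high use in the testis, had 10.8, 9.30 and 12.8 FPKM in resistant larvae and 7.55, 6.58 and 8.54 FPKM in sensitive larvae. Its log2 fold change was 0.48 (limma adjusted p = 0.03689), and it turned to -0.03 under median-of-ratios scaling. RpL10Aa was called in 2 and RpL22-like in 1 of the 6 fits with a library left out. RpL10Aa held only without replicate 1 of either strain, and RpL22-like only without resistant larvae replicate 2. For both, every library of resistant larvae lay above every one of sensitive larvae. The groups of RpS5b, the copy of the 40S protein gene RpS5a, overlapped, with 7.25, 9.20 and 12.5 FPKM in resistant larvae and 14.6, 11.4 and 17.8 FPKM in sensitive larvae (log2 fold change -0.56, limma adjusted p = 0.04965). This call was lost under common-total scaling (limma adjusted p = 0.1269) and in 4 of the 6 fits with a library left out, all but those without resistant larvae replicate 3 or sensitive larvae replicate 2. Testis markers were looked at in these libraries too. Of 20 markers, 14 rose and 0 fell among the 18 tested, where 48.8% of all genes rose and 9.84% fell. Their median log2 fold change was 0.57, beside 0.49 over all genes. Under median-of-ratios scaling 1 rose and 1 fell, with a median of 0.12. Their summed level was 369.2 to 484.6 FPKM in resistant larvae and 249.5 to 298.4 FPKM in sensitive larvae. Their part in the levels of these copies was not tested.

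The lists of genes that build or serve the ribosome were counted in the same larval fit. Of 37 genes of ribosome biogenesis, the nucleolar machinery that makes and assembles the subunits, 29 rose and 0 fell, with a median log2 fold change of 0.71. Under median-of-ratios scaling 4 rose and 1 fell, with a median of 0.21. Of 38 translation factors, 16 rose and 1 fell, with a median of 0.47, and 2 rose and 7 fell with a median of -0.09 under median-of-ratios scaling. Of the 73 mitochondrial ribosomal protein genes, 2 rose and 13 fell, with a median of -0.21 that became -0.76 under the same scaling. Without scaling, 72 of these 73 genes lay below the median of all genes, as all 78 core genes did. These lists are read against the shares of all genes given above.

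In adults the question was again what sets the resistant strain apart. No core gene passed the test, and the 3 members that did were second copies with higher levels in resistant adults. Of the 92 members tested, 3 rose and 0 fell, where 15.9% of all genes were called higher and 3.95% lower. Of the 78 core genes, 0 had an unadjusted p below 0.05, with and without median-of-ratios scaling. The smallest adjusted p was 0.214 with that scaling and 0.2717 without it (limma). The median log2 fold change of the core set was -0.14, beside 0.02 over all genes, and it was 0.06 without resistant adults replicate 3. It was -0.28 under median-of-ratios scaling, where the median of all genes was -0.11. Under that scaling 1 member rose and 0 fell, where 10.6% and 4.41% of all genes did. Without resistant adults replicate 3 and sensitive adults replicate 1, a choice made after seeing the data, the core median was -0.11. Since these libraries were left out for their levels of core genes, that fit is no test of them.

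RpL10Aa had the largest difference of the adult strains among the members called. It lies on chromosome arm 3R at bases 15037366 to 15038149 on the plus strand. It had 14.9, 14.6 and 13.0 FPKM in resistant adults, against 4.02, 6.96 and 7.44 FPKM in sensitive adults. All libraries of resistant adults were above all of sensitive adults, and the log2 fold change was 1.12 ± 0.26 (SE, limma adjusted p = 0.01623). It was 0.99 under median-of-ratios scaling (limma adjusted p = 0.03253), and the call was lost without resistant adults replicate 1, at 1.08. RpL10Ab, its partner, had 2395, 2616 and 1645 FPKM in resistant adults and 1730, 2685 and 2890 FPKM in sensitive adults, which overlap. RpL10Aa made up 0.651 ± 0.117% of the pair in resistant adults and 0.249 ± 0.015% in sensitive adults (SD, n = 3 each).

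RpS19b, a copy of the 40S protein gene RpS19a known for its use in the germline, lies on 3R at bases 23932729 to 23933530 on the minus strand. It had 23.6, 20.2 and 15.5 FPKM in resistant adults and 7.55, 10.9 and 11.2 FPKM in sensitive adults. The groups did not overlap, and the log2 fold change was 0.93 ± 0.25 (SE, limma adjusted p = 0.02893), or 0.79 with an adjusted p of 0.05144 under median-of-ratios scaling (limma). RpS28a, a copy of the 40S protein gene RpS28b, had 3.61, 4.49 and 2.86 FPKM in resistant adults and 1.250, 2.16 and 1.86 FPKM in sensitive adults. Its log2 fold change was 0.75 ± 0.22 (SE, limma adjusted p = 0.03732), or 0.64 with an adjusted p of 0.07212 under median-of-ratios scaling (limma). RpS19b made up 0.625 ± 0.073% of its pair with RpS19a in resistant adults and 0.287 ± 0.023% in sensitive adults, and 0.856 ± 0.219% in resistant larvae and 0.532 ± 0.056% in sensitive larvae (SD, n = 3 each). In both stages the ranges of the strains did not overlap. In larvae RpS19b itself had a log2 fold change of -0.04 (limma adjusted p = 0.8872). Its partner RpS19a was lower in resistant larvae, at -0.71 (limma adjusted p = 0.01476). The adult calls of RpS19b and of RpS28a were each lost in 5 of the 6 fits with a library left out and held without resistant adults replicate 3. The count of members that rose was 4 without that library, 0 without resistant adults replicate 1, and 1 without any other adult library.

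Testis markers were higher in the same adult libraries. Of the 20 markers, 11 rose and 0 fell among 18 tested, where 15.9% of all genes rose and 3.95% fell. Their median log2 fold change was 0.96, beside 0.02 over all genes. Their summed level was 1280, 1450 and 1274 FPKM in resistant adults and 476.6, 710.6 and 723.8 FPKM in sensitive adults. None was at 0 in all libraries of a group, and 2 averaged below 1 FPKM. The 20 markers of the female germline and eggshell had 0 calls, with sums of 7783, 12073 and 7132 FPKM in resistant adults and 10133, 10565 and 11626 FPKM in sensitive adults. Larval markers were higher in resistant adults in 3 of 8 cases and lower in 0, with sums of 189.0 to 264.7 FPKM in resistant adults and 83.9 to 101.7 FPKM in sensitive adults. Adult markers were lower in 3 of 6 cases, with sums of 7886 to 17748 FPKM in resistant adults and 15561 to 17916 FPKM in sensitive adults. The part of these markers in the levels of the copies was not tested.

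The remaining copies did not pass the test in adults, and most had overlapping groups. RpL22-like had 8.14, 6.53 and 7.32 FPKM in resistant adults and 3.63, 5.87 and 4.86 FPKM in sensitive adults, which do not overlap (log2 fold change 0.54, limma adjusted p = 0.1478). RpS10a, whose partner is RpS10b, had 11.1, 8.92 and 4.49 FPKM in resistant adults and 2.79, 9.16 and 4.24 FPKM in sensitive adults. RpL37b made up 0.428 ± 0.148% of its pair with RpL37a in resistant adults and 0.236 ± 0.070% in sensitive adults (SD, n = 3 each). RpS15Ab made up 2.71 ± 0.193% of its pair with RpS15Aa in resistant adults and 2.12 ± 0.323% in sensitive adults. RpL34a made up 16.7 ± 2.24% of its pair with RpL34b in resistant adults and 15.6 ± 1.26% in sensitive adults.

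RpS14a and RpS14b, which encode the same protein of the 40S platform and lie 220 bases apart on the X chromosome, shared their pair in a narrow range of group means. RpS14a made up 60.6 ± 3.16% of the pair in resistant adults, 61.2 ± 2.63% in sensitive adults, 63.7 ± 0.871% in resistant larvae and 59.7 ± 5.003% in sensitive larvae (SD, n = 3 each). No source used here says how reads common to near-identical copies were divided, so the split of this pair is uncertain.

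The lists around the core set were counted in the adult fit too. Of the 73 mitochondrial ribosomal protein genes 0 passed the test. Of 37 biogenesis genes 1 rose and 1 fell, and of 38 translation factors 5 rose and 1 fell, where 15.9% of all genes rose and 3.95% fell. The counts of translation factors lay near these shares.

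**Figure D4:**
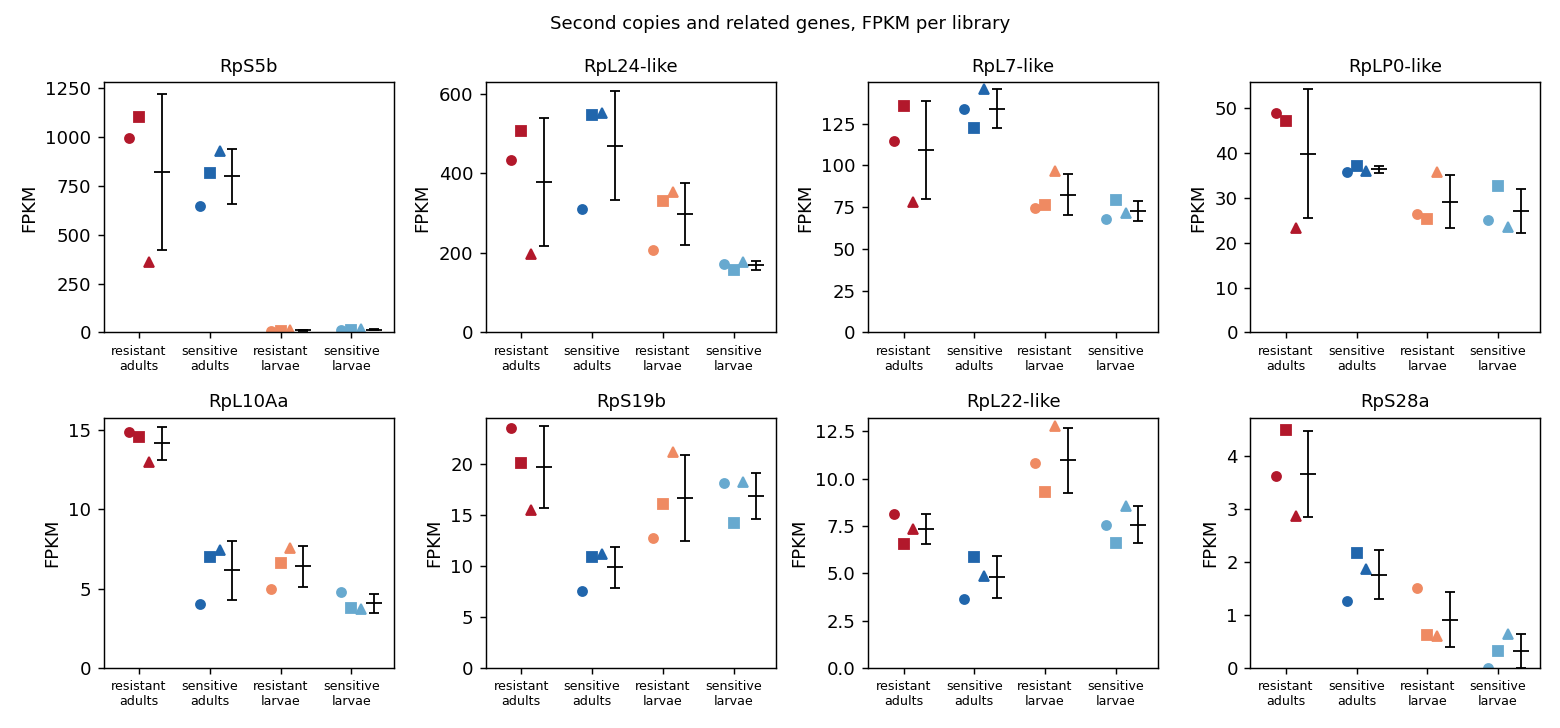
FPKM of 8 second copies or related genes in each library (points, shape by replicate number) with the mean ± SD of 3 libraries; axes start at 0 and differ between panels. RpS5b is at 362.2 FPKM or more in adults and at 17.8 FPKM or less in larvae, and RpL10Aa is above 12 FPKM in resistant adults alone.

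The stage comparison asked how adults differ from larvae within each strain. RpS5b (3R, bases 14900432 to 14901563, minus strand), which is the germline copy of RpS5a and lies 135802 bases from RpL10Aa, had by far the largest difference of any member. It had 995.9, 1100 and 362.2 FPKM in resistant adults and 7.25, 9.20 and 12.5 FPKM in resistant larvae. It had 648.7, 817.6 and 927.9 FPKM in sensitive adults and 14.6, 11.4 and 17.8 FPKM in sensitive larvae. Adults lay far above larvae in both strains, with log2 fold changes of 6.14 ± 0.40 in the resistant strain (SE, limma adjusted p = 6.625e-07) and 5.68 ± 0.21 in the sensitive strain (SE, limma adjusted p = 6.238e-08).

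With this, adults drew on both genes of the pair. RpS5b made up 38.5, 44.2 and 19.1% of the pair in resistant adults and 33.2, 35.8 and 36.3% in sensitive adults. It made up 0.48, 0.49 and 0.73% in resistant larvae and 0.77, 0.53 and 0.75% in sensitive larvae. The low adult library was resistant adults replicate 3, which also had the lowest sum of the female germline and eggshell markers, 7132 FPKM. Resistant adults replicate 1 had a sum of these markers nearly as low, 7783 FPKM, with RpS5b at 38.5% of the pair. These markers summed to 27.5 to 44.3 FPKM in larvae, where 17 of the 20 averaged below 1 FPKM in the resistant strain and 14 in the sensitive strain. In adults of these strains 18 and 20 of the 20 rose, where 34.7% and 55.7% of all genes did. Most of the markers passed the filter through the adults, so these counts are no test of their direction. Their part in the level of RpS5b was not tested. RpS5a fell in sensitive adults, with 1304, 1463 and 1625 FPKM against 1893, 2144 and 2349 FPKM in sensitive larvae (log2 fold change -0.54, limma adjusted p = 0.02392). Under common-total scaling this was -0.32 and not called (limma adjusted p = 0.07467). The call was also lost without sensitive adults replicate 2, sensitive larvae replicate 2 or sensitive larvae replicate 3. In resistant adults its log2 fold change of -0.16 had a limma adjusted p of 0.5891.

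**Figure D5:**
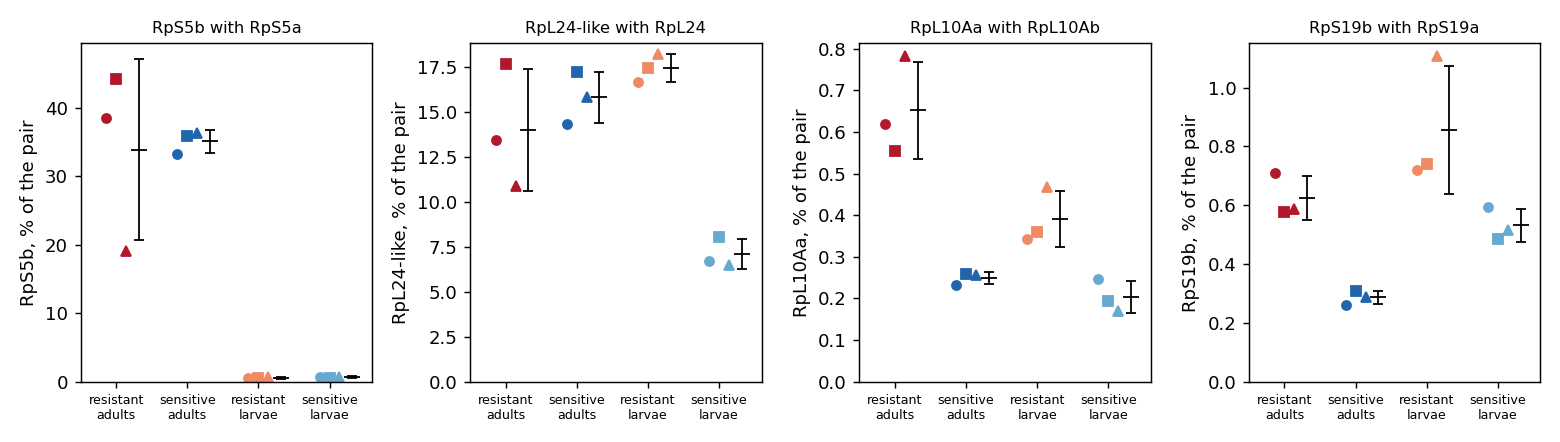
Share of a pair's FPKM that comes from the second copy or related gene (%), by library, with the mean ± SD of 3 libraries; axes start at 0 and differ between panels. RpS5b makes up 19.1 to 44.2% in adults and under 1% in larvae, and RpL24-like stands out by its low share of 6.50 to 8.04% in sensitive larvae.

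In the resistant strain 13 of 92 members rose in adults and 0 fell, where 34.7% of all genes were called higher and 17.4% lower. The core set gave 9 of these, with a median log2 fold change of 0.27 beside 0.28 over all genes. RpS2, a 40S protein of the mRNA entry channel, was the highest core gene with a log2 fold change of 0.96 (limma adjusted p = 0.01014), followed by RpL8 at 0.90 and RpL17 at 0.87. Under median-of-ratios scaling 4 members rose and 5 fell, where 28.3% and 25.0% of all genes did, and the core median was -0.02. The count that rose was 35 without resistant adults replicate 3, 3 without replicate 1 and 6 without replicate 2 of that group, and 7 without resistant larvae replicate 1. Without resistant adults replicate 2, 1 member fell.

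In the sensitive strain 10 members rose in adults and 3 fell, where 55.7% of all genes were called higher and 13.2% lower. The core median was 0.11 and that of all genes 0.62, so the core set again lay below the table as a whole, with all 78 genes under its median. Under median-of-ratios scaling 3 members rose and 32 fell, where 29.0% and 26.0% of all genes did. The core median was then -0.58, and its direction thus turned with the scaling. With a common total, 31 members rose and 1 fell, where 62.8% and 10.5% of all genes did. The count that rose was 29 without sensitive adults replicate 1, 3 without replicate 2 or replicate 3 of that group, 6 without sensitive larvae replicate 1 and 5 without replicate 2. Without sensitive larvae replicate 3, 1 member fell. The 20 shortest core genes had a median log2 fold change of -0.01 and the 20 longest one of 0.24. In the resistant strain these were 0.10 and 0.34.

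Other copies differed by stage. RpS28a rose in adults of the resistant strain by 1.31 on the log2 scale (limma adjusted p = 0.0007579) and in those of the sensitive strain by 1.08 (limma adjusted p = 0.00206). It had 1.51, 0.61 and 0.60 FPKM in resistant larvae and 0, 0.32 and 0.63 FPKM in sensitive larvae, below the adults of each strain. No library of sensitive larvae reached 1 FPKM, so RpS28a passed the filter there through the adults alone. Its direction in the sensitive strain was thus set by the filter, and that call is no test of it. Of the resistant larvae only replicate 1 reached 1 FPKM, so there too RpS28a passed the filter through the adults. The call in the resistant strain is thus no test of its direction either. RpL10Aa rose in resistant adults, with a log2 fold change of 1.05 (limma adjusted p = 0.002804), and had 0.46 in sensitive adults (limma adjusted p = 0.1033). Whether these 2 changes differ is the same test as that of the strain effect between stages, at 0.59 with an adjusted p of 0.1649 (limma).

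RpL24-like had 310.9, 544.9 and 550.6 FPKM in sensitive adults and the values given above in sensitive larvae, a log2 fold change of 1.43 (limma adjusted p = 0.0006919), or 0.74 with an adjusted p of 0.04298 under median-of-ratios scaling (limma). In the resistant strain it was 0.28 (limma adjusted p = 0.5485). RpL7-like, whose yeast relative also works on the 60S precursor, had 133.8, 122.6 and 145.8 FPKM in sensitive adults and 67.6, 79.3 and 71.2 FPKM in sensitive larvae. It rose by 0.87 (limma adjusted p = 0.0007373), and by 0.20 with an adjusted p of 0.3427 under median-of-ratios scaling (limma). RpLP0-like, related to a yeast factor that holds the place of the stalk protein during assembly, and RpL34a were called higher in sensitive adults, by 0.42 each. Both turned under median-of-ratios scaling, to -0.24 for RpLP0-like and -0.27 for RpL34a. RpS28-like was called higher in resistant adults, by 0.84 (limma adjusted p = 0.0387), with overlapping groups.

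RpS19b and RpL22-like fell in sensitive adults. RpS19b had 7.55, 10.9 and 11.2 FPKM in sensitive adults and 18.2, 14.3 and 18.2 FPKM in sensitive larvae, a log2 fold change of -0.73 (limma adjusted p = 0.008004), which was called whichever library was left out. In the resistant strain, at 12.8, 16.1 and 21.2 FPKM in larvae, its change of 0.24 had a limma adjusted p of 0.4643. RpL22-like had the values given above, with a log2 fold change of -0.58 (limma adjusted p = 0.02798). Its call was lost under common-total scaling, at -0.39 (limma adjusted p = 0.09857), and without sensitive adults replicate 3, sensitive larvae replicate 1 or sensitive larvae replicate 3.

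The mitochondrial ribosomal protein genes were counted by stage in the same fits. Of 73, 71 rose in adults of the resistant strain and 66 in those of the sensitive strain, with 0 that fell, and their median log2 fold changes lay 1.02 and 0.27 above those of all genes. Under median-of-ratios scaling 67 rose and 0 fell in the resistant strain. In the sensitive strain 20 rose and 1 fell, near the 29.0% of all genes called higher there. Of 37 biogenesis genes, 17 rose and 1 fell in the resistant strain, and 34 rose and 0 fell in the sensitive strain. Of 38 translation factors, 4 rose and 4 fell in the resistant strain, and 20 rose and 3 fell in the sensitive strain. The shares of all genes called higher were 34.7% and 55.7% in these fits. Under median-of-ratios scaling 3 translation factors rose and 11 fell in the sensitive strain, and 1 rose and 6 fell in the resistant strain.

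Whether the strains differ by another amount in adults than in larvae was tested on all 12 libraries. Of 92 members, 3 had a strain effect that was higher in adults than in larvae and 0 one that was lower, where 9.98% and 19.7% of all genes did. These were RpS19b, at 0.97 ± 0.33 (SE, limma adjusted p = 0.03904), RpL17, at 0.84 ± 0.29 (SE, limma adjusted p = 0.04255), and RpL18, a 60S protein, at 0.84 ± 0.29 (SE, limma adjusted p = 0.04338). The core median was 0.19 and that of all genes -0.30. The count was 8 without resistant adults replicate 3, and 1 without replicate 2 of resistant adults, of sensitive adults or of sensitive larvae. It was 0 without resistant adults replicate 1, sensitive adults replicate 1, resistant larvae replicate 1 or 2, or sensitive larvae replicate 1 or 3. Under median-of-ratios scaling 14 members were higher and 0 lower, where 15.7% and 7.82% of all genes were. For RpL24-like the difference was -1.15 with an adjusted p of 0.07446 (limma), and it was called lower under common-total scaling, at -1.37 with an adjusted p of 0.02309 (limma). Under that scaling RpL17 alone was called higher and RpL24-like alone lower, where 8.46% and 28.2% of all genes were. RpS19b and RpL18 then had adjusted p-values of 0.05172 and 0.05162 (limma).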

How the data were processed

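Total RNA of whole bodies went onto a BGISEQ-500, per the labels' protocols. Tools in the submitters' processing notes are FastQC 0.11.9, RSEM 1.3.3, STAR and edgeR 3.12, with the dm6 build and no settings. The authors deposited FPKM values for 14001 genes in 12 libraries. Strand use, the division of reads among copies and read totals are not given in the sources used here, so no counting interval is printed. Coordinates come from an Ensembl annotation of dm6, which held 87 of the 92 members by identifier. Promoter windows and protein sequences were not used here.

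Genes at 1 FPKM or more in at least 3 libraries of a fit were tested on log2(FPKM + 1), which understates changes of low genes. The test was two-sided, by limma 3.58.1 (trend, robust) in R 4.3.3, and p-values were adjusted by Benjamini-Hochberg over all genes tested, with a threshold of 0.05. RpS28a missed this filter in larvae. Each contrast was fitted to its 6 libraries, and the difference between stages to all 12. No scaling was applied beyond the FPKM. The steps were tested on simulated data. Plots used matplotlib 3.10.9 in Python 3.11.15.

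Named were all genes of pairs, the stalk, the 3 highest and 3 lowest members, and per contrast up to 3 called rises and 3 falls without overlap. RpS2 was named after its values were seen. Members, lists and markers were chosen with earlier results of these data known. Alternatives were median-of-ratios and common-total scaling, a filter on a mean FPKM of 5, none at all, a pseudocount of 0.1, a replicate block, a threshold of 0.01, all libraries in 1 fit, and each library left out in turn.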

Additional observations from a re-analysis of the deposited data

Results flagged for a closer look

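RpS19b, RpL17 and RpL18 had a strain difference that was not the same in adults and larvae in the test of that difference (limma, 12 libraries). For RpS19b the strain effect was higher in adults by 0.97 on the log2 scale, with 0.93 in adults and -0.04 in larvae. For RpL17 it was higher by 0.84, and for RpL18 by 0.84, both lower in resistant larvae than in sensitive larvae. Leaving out 1 library ended the call of RpS19b in 6, of RpL17 in 10 and of RpL18 in 9 of 12 fits. Under median-of-ratios scaling all 3 were called, at 1.38, 1.29 and 1.29. Under common-total scaling RpL17 was called, at 0.62, while RpS19b, at 0.76, and RpL18, at 0.62, were not.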

How the results depend on the processing

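Under median-of-ratios scaling the members called higher and lower were 0 and 57 between larval strains, 1 and 0 between adult strains, 4 and 5 by stage in the resistant strain, 3 and 32 by stage in the sensitive strain, and 14 and 0 for the strain effect between stages. Reversed under it were RpL22-like in larvae, at -0.033, and, by stage in the sensitive strain, RpL34a at -0.27 and RpLP0-like at -0.24. Under common-total scaling 9 members were lower between larval strains, 1 lower by stage in the resistant strain, 31 higher and 1 lower in the sensitive strain, and 1 higher and 1 lower for the strain effect between stages. A threshold of 0.01 left 0 higher and 4 lower in larvae, 0 higher in adults, 3 higher by stage in the resistant strain, 4 higher and 1 lower in the sensitive strain, and 0 higher between stages. With 1 fit of all libraries, 0 were higher in larvae and 2 lower by stage in the resistant strain. Without resistant adults replicate 3 and sensitive adults replicate 1, 4 members were lower and 4 higher in adults without further scaling, and 4 were lower with median-of-ratios scaling. These libraries were chosen by their core levels, so this is no test of the core genes. The shares of all genes called are not given for this fit, the threshold of 0.01, the fit of all libraries or the replicate block. Counts of members from these settings are thus not read as particular to the members. Without the 20 most abundant other genes the share of FPKM was 25.5% in resistant larvae and 29.0% in sensitive larvae. It was then 26.0% in resistant adults and 29.0% in sensitive adults, so the means of the stages lay close together in each strain.

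With each library left out in turn, members called higher ranged over 0 to 2 between larval strains, 0 to 4 between adult strains, 3 to 35 and 3 to 29 by stage in the resistant and the sensitive strain, and 0 to 8 for the strain effect between stages. Members called lower ranged over 4 to 17, 0 to 0, 0 to 1, 1 to 3 and 0 to 1 in the same order. The share of FPKM ranged over 22.1 to 25.9% in resistant adults, 25.4 to 27.9% in sensitive adults, 19.2 to 20.8% in resistant larvae and 20.8 to 22.4% in sensitive larvae. The cause of these moves was not tested. Of 965 values under alternatives, 757 were labelled the same, 137 weaker, 68 moved and 3 reversed. For named genes, the same means that direction and call were kept, weaker that only the direction was, and reversed that the direction turned. For counts of calls, core medians and shares, the same means a change within a tolerance and moved one beyond it. The tolerance was a fixed ratio for counts, the spread between replicates for core medians and the SD of the group for shares.

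The replicate numbers did not pair the libraries: same-number correlations of deviations ran from -0.28 to 0.21, and libraries did not all correlate best with their own number. With the replicate block, members higher and lower were 2 and 15 between larval strains, 3 and 0 between adult strains, 13 and 1 by stage in the resistant strain, 9 and 4 in the sensitive strain, and 3 and 0 between stages. Second copies of a few FPKM rest on few reads, and no depth was available to give their counting error.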
